A study of Mus musculus with 6 samples.

Results

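The transcripts examined here encode enzymes that make polysialic acid and gangliosides, the sialic acid-bearing glycans of nerve cell surfaces. The set comprised 10 genes, St8sia1, St8sia2, St8sia3, St8sia4, St8sia5, St3gal4, St3gal5, B4galnt1, Gne and Cmas, and was measured by every probe set annotated with 1 of these symbols alone. This gave 11 of the 12422 probe sets on the array, and 10 of the 8251 genes named by a single symbol. The genes were chosen by role and with the genotype differences of these brains known, so those differences are given as a description and support nothing further. All 3 knockout mice carried a constitutive deletion of Ncam1, the gene of the neural cell adhesion molecule NCAM, and the 3 wild-type mice shared their genetic background (C57BL/6J). All 6 animals were male, and total brain RNA of each was read on its own one-colour array. Each genotype had 2 animals aged 2 months (replicates 1 and 2) and 1 aged 3 months (replicate 3). The series compared brains with and without NCAM, and the values below show the level of this pathway's transcripts in each.

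Sialic acid is made from an amino sugar precursor in the cytosol, activated to a nucleotide sugar in the nucleus, and transferred to glycans in the Golgi. St8sia2 and St8sia4 build long chains of it, polysialic acid, mainly on NCAM, where the chains loosen contact between cells and accompany migration and plasticity. Gangliosides are sialylated sphingolipids that are abundant in neuronal membranes, and their synthesis branches at lactosylceramide through the products of St3gal5, St8sia1, St8sia5 and B4galnt1.

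The regions in front of St3gal4 and St3gal5 are printed because these sialyltransferases lay apart between the genotypes in opposite directions. The sequences are RefSeq's for GRCm38.p6 and run 5′ to 3′ on the gene's strand. They reach from 250 bases before an annotated start to 50 after it. Capitals mark the motifs GGGCGG (a GC box) and CCAAT, read on both strands. St3gal4 lies at chr9:35116815-35117114 on the minus strand, and St3gal5 at chr6:72097358-72097657 on the plus strand. The annotated span of the St3gal5 gene begins at 72097552, so its window was set on another start than this.
St3gal4: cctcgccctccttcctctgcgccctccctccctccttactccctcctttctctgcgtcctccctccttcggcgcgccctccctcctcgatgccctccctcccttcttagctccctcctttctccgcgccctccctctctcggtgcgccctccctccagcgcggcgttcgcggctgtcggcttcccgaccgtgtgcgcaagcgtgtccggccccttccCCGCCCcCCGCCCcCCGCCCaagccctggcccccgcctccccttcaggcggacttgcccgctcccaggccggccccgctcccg
St3gal5: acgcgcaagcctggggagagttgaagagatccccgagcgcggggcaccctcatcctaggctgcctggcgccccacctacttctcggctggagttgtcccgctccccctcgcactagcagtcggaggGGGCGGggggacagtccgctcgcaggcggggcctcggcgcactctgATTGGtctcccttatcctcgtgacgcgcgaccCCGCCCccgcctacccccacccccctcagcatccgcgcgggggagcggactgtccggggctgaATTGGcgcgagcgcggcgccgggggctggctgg
The St3gal4 window held 3 GC boxes and 0 CCAAT motifs, and the St3gal5 window 2 of each. No 2 matches overlapped in these windows. A GC box occurred in 35.7% and a CCAAT motif in 37.4% of all 32851 windows of this length in the table. Both windows were rich in G and C, at 74.0% for St3gal4 and 72.7% for St3gal5, where the median window had 52.7%. Of the other members with a window used here, St8sia4 and St8sia1 had 1 GC box and 2 CCAAT motifs each. St8sia2 had 2 and 0, Cmas had 1 and 0, and both windows of Gne had 0 of either. These matches describe the letters in the window and are not evidence of binding.

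Values are linear array signals, in arbitrary units scaled alike on every array, and cannot be compared between probe sets. A log2 difference is the knockout mean less the wild-type mean of log2(signal + 16), followed by its standard error from limma. Probe sets with a mean log2 value of 6.46 or more were tested, 7453 in all, and 10 of the 11 probe sets of the set were among them. In total brain, fewer cells of a type and less RNA per cell cannot be told apart. The targeted gene followed the labels. The brightest Ncam1 probe set read 276.2, 208.7 and 327.4 in knockout replicates 1, 2 and 3, against 1346, 1448 and 1216 in the wild-type animals (log2 difference -2.26 ± 0.15, limma adjusted p = 0.00076). A less specific Ncam1 probe set read 100.9, 71.2 and 86.7 against 154.7, 140.9 and 145.2 (-0.68 ± 0.15, adjusted p = 0.416 in limma), and the dimmest read 3.53 to 6.92 against 4.54 to 8.49 and was not tested. Whether these probe sets lie inside the deleted part of the gene is unknown here, so they are no check of the deletion itself.

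Some arrays stood apart on markers of other cells or regions. The summed signal of 9 cerebellar genes was 4543 in knockout replicate 2, against 12108 and 13475 in the other knockout animals and 12349 to 13556 in the wild-type animals, and Gabra6, a cerebellar granule cell receptor subunit, read 11.8 there and at least 1254 elsewhere. The summed signal of 6 pituitary genes was 15624 in knockout replicate 1, and 1249 and 1341 in the other knockout animals, against 939.2 to 1097 in the wild-type animals. Of 7 tested oligodendrocyte and myelin genes 5 were lower and 2 higher in knockout brains, with summed signals of 12275 to 13762 in knockout brains, against 13907 to 14902 in the wild type. By median log2 deviation this list overlapped between genotypes, with -0.081 in knockout replicate 1 and -0.082 in wild-type replicate 3. Summed signals of 6 neuronal genes were 21686 to 22250 in knockout brains against 21946 to 22430, of 5 astrocyte genes 5643 to 6370 against 5570 to 6575, and of 5 neuroblast genes 10992 to 11716 against 10453 to 11480. By median log2 deviation the astrocyte list did not overlap, at -0.248 to -0.143 in knockout brains against -0.129 to 0.101 in the wild type. Of its 5 genes 2 were higher and 3 lower in knockout brains. For the Gapdh control, 3' signal over 5' signal, a sign of RNA quality, ranged over 0.811 to 0.826 in knockout brains, against 0.768 to 0.798 in wild-type brains, while the same ratio for the actin control overlapped, at 1.14 to 1.22 against 1.08 to 1.20. Values without knockout replicate 1, replicate 2 or both are given below beside many genotype differences that changed when they were left out. Without both, the only knockout animal is replicate 3, aged 3 months, against wild-type animals of both ages. In those values genotype and age cannot be told apart. A difference printed without such a value may have moved too.

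**Figure D1:**
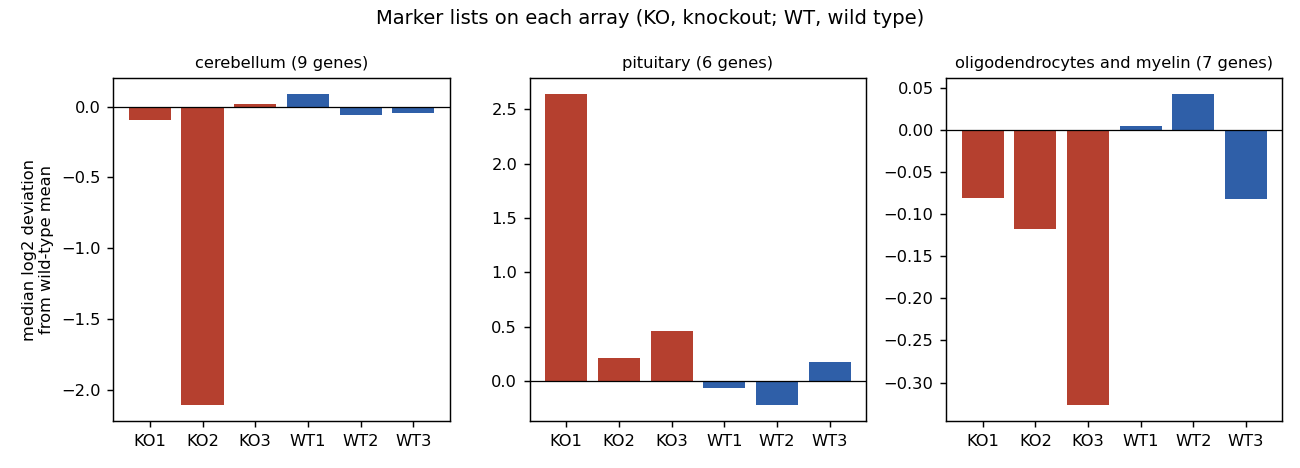
Median log2 deviation from the wild-type mean for 3 marker lists on each array (bars, KO knockout and WT wild type, numbered by replicate). The cerebellar list is at -2.11 in knockout replicate 2, and the pituitary list at 2.64 in knockout replicate 1.

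No member of the set passed in the genotype comparison. Of 10 tested probe sets 0 had an adjusted p under 0.05 in limma, with adjusted p from 0.502 to 0.979, where 0.0268% of all tested probe sets passed. At an unadjusted p under 0.05, 3 of the 10 qualified, and 6.94% of all did. The signals of the genotypes did not overlap for 3 of the 10, where 12.9% of all did not. Of these 3, 2 were higher and 1 lower, where 6.08% of all tested probe sets were apart and higher and 6.8% apart and lower. Since the set was chosen with this contrast known, nothing is read from these shares. Differences were positive for 7 and negative for 3, with a median of 0.04, and the median over all tested probe sets was 0.00.

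Transcripts for the supply of activated sialic acid overlapped between the genotypes. Gne, whose enzyme catalyses the opening steps of sialic acid synthesis, read 304.7, 289.3 and 366.6 in knockout replicates 1 to 3, against 329.0, 333.2 and 341.8 in wild-type animals. The knockout animals fell on both sides of the wild-type range, and the log2 difference was -0.07 ± 0.11, and 0.13 without knockout replicates 1 and 2. Cmas, which makes the activated donor CMP-sialic acid, read 1452, 1612 and 1329.8 in knockout animals by its brighter probe set, against 1439, 1482 and 1367. The groups overlapped, with a log2 difference of 0.03 ± 0.08, and -0.10 without knockout replicates 1 and 2. A second Cmas probe set, of a kind with fewer or less specific probes, was dim, at 65.2, 88.5 and 93.1 against 45.7, 66.8 and 93.4, and gave 0.24 ± 0.24 (0.03 without wild-type replicate 1). Its mean log2 value of 6.49 lay just above the limit for testing.

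Signals of both polysialyltransferases also overlapped between the genotypes. St8sia2, the enzyme that dominates before birth, read 208.1, 231.2 and 239.6 in knockout animals, against 270.7, 228.6 and 266.7 in wild-type animals. Its log2 difference was -0.16 ± 0.11, and wild-type replicate 2 lay inside the knockout range. It was -0.11 without knockout replicate 1 and -0.08 without knockout replicates 1 and 2. St8sia4, the main polysialyltransferase of the adult brain, read 241.6, 348.7 and 243.7, against 236.8, 280.7 and 218.7. Knockout replicate 2, the animal with low cerebellar signal, was the highest of the 6, and the other knockout animals lay inside the wild-type range. The log2 difference of St8sia4 was 0.16 ± 0.16 over all animals and -0.01 ± 0.13 without that replicate.

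**Figure D2:**
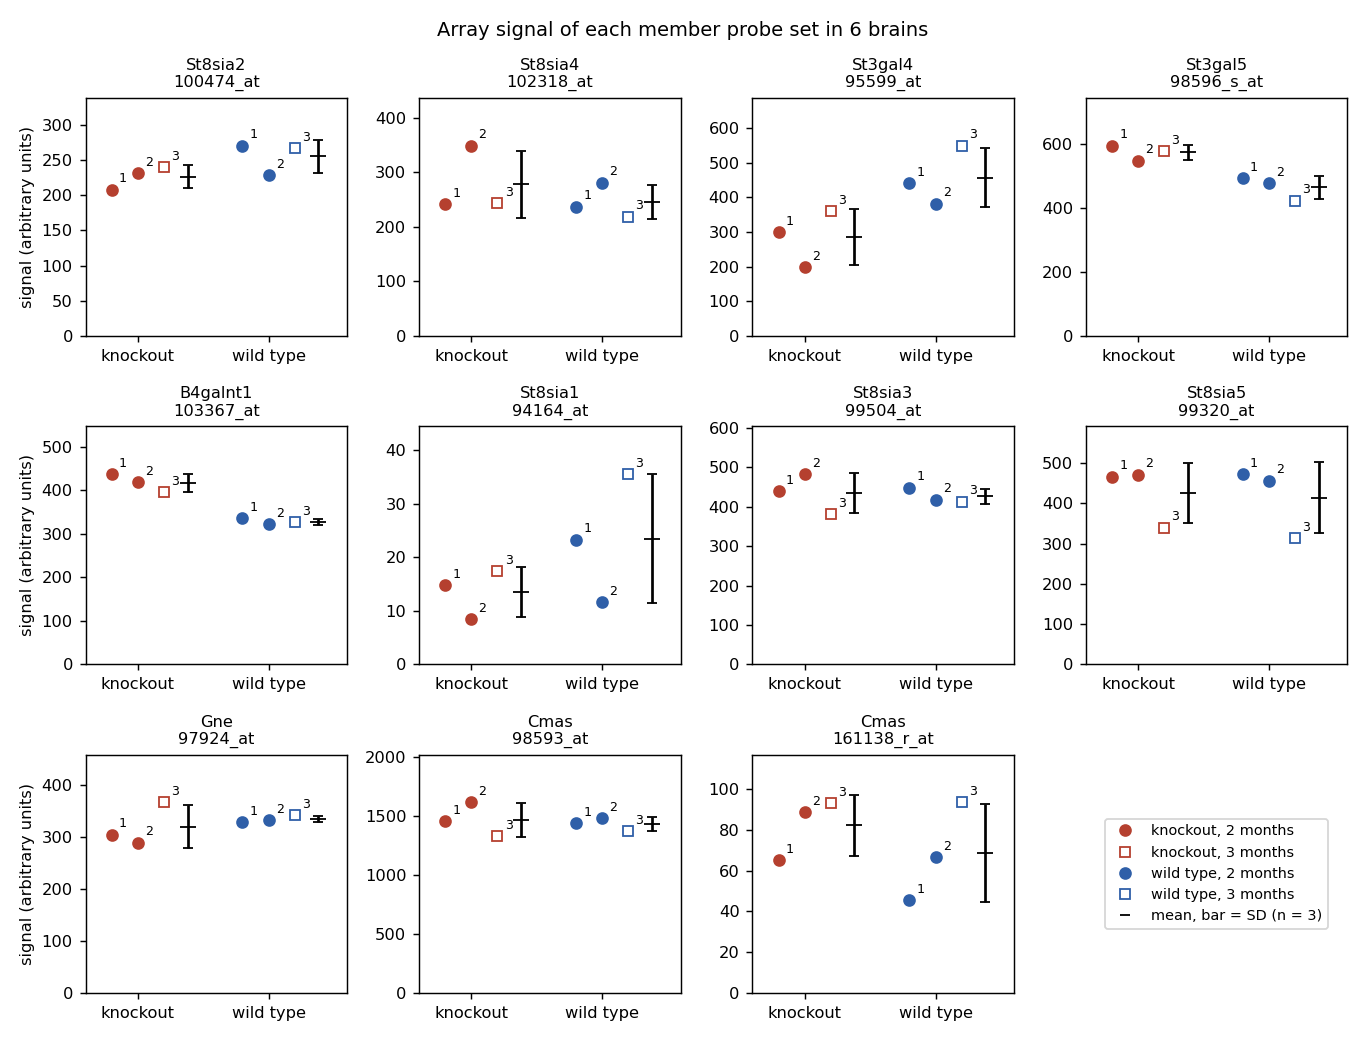
Signal (arbitrary units) of the 11 probe sets in each brain, knockout left and wild type right, with the replicate number beside each point, squares for 3-month-old animals and the mean ± SD (n = 3) at the side. In knockout animals B4galnt1 and St3gal5 lie above and St3gal4 below every wild-type point, and St8sia5 is lowest in both 3-month-old animals.

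A pair of enzymes on the route to the brain's complex gangliosides, B4galnt1 and St3gal5, had knockout values above the whole wild-type range. B4galnt1, which adds N-acetylgalactosamine to form GM2 and GD2, read 437.5, 418.2 and 395.5 in knockout brains, against 335.9, 321.8 and 326.6 in wild-type brains. The group means were 417.1 ± 21.0 and 328.1 ± 7.18 (SD, n = 3 each), a log2 difference of 0.33 ± 0.09, or 1.26-fold. St3gal5, which makes GM3, the precursor of nearly all brain gangliosides, read 596.6, 549.7 and 580.4, against 494.5, 477.8 and 424.0. Its means were 575.6 ± 23.8 and 465.5 ± 36.9, a log2 difference of 0.30 ± 0.09, or 1.23-fold. The St3gal5 probe set is of a kind that can also detect related transcripts. Both genes were highest in knockout replicate 1, the animal with high pituitary signal, and without it the differences were 0.30 and 0.27. Without knockout replicates 1 and 2 together they were 0.26 and 0.31. In size, B4galnt1 exceeded 93.1% and St3gal5 91.5% of all tested probe sets. Both missed the threshold (adjusted p = 0.502 for B4galnt1 and 0.585 for St3gal5 in limma).

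The sialyltransferase that attaches sialic acid to the galactose ends of glycoproteins and glycolipids, St3gal4, went the other way. It read 298.8, 199.2 and 359.5 in knockout replicates 1 to 3, against 440.3, 381.9 and 549.5 in the wild-type animals. Every knockout value lay below every wild-type value, the nearest being 359.5 in knockout replicate 3 and 381.9 in wild-type replicate 2. The means were 285.9 ± 80.9 and 457.2 ± 85.1 (SD, n = 3 each), a log2 difference of -0.67 ± 0.20, or 1.59-fold lower, which in size exceeded 99.0% of all tested probe sets. It did not pass (adjusted p = 0.585 in limma). The lowest value came from knockout replicate 2, in which the 9 cerebellar genes also read low, and without this animal the log2 difference was -0.45 ± 0.16, smaller by over 1.5 times. With knockout replicate 3, aged 3 months, as the only knockout animal against wild-type animals of both ages, it was -0.32. At 2 months the difference was -0.71 and at 3 months, with 1 animal per genotype, -0.59. St3gal4 lies on chromosome 9, the chromosome of Ncam1, 14.4 Mb from it (GRCm38.p6), and the part of linkage in its difference was not tested.

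**Figure D3:**
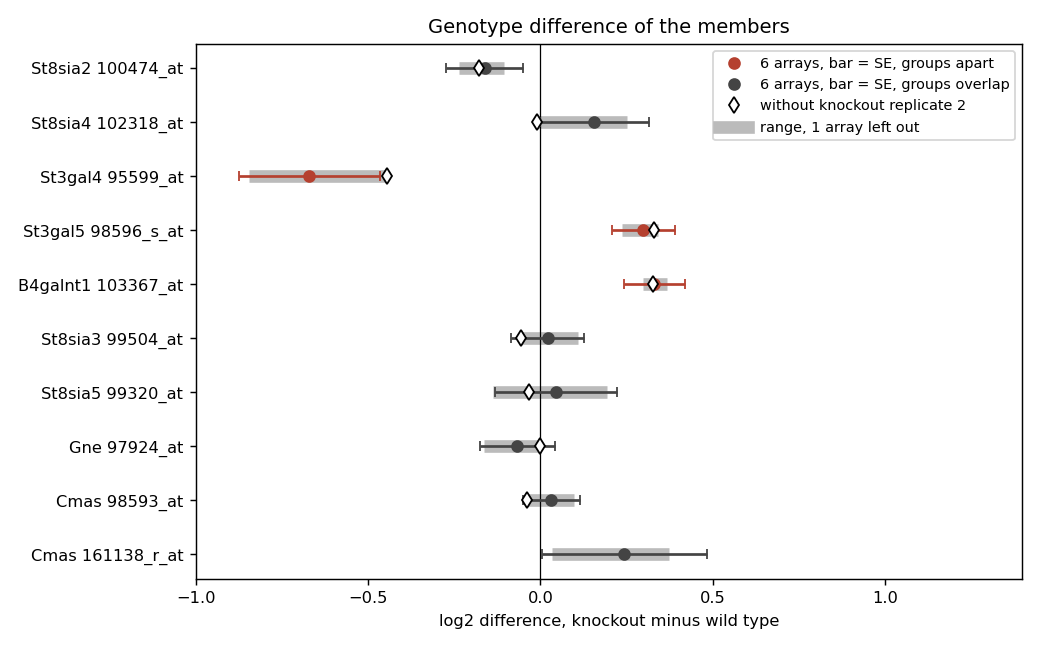
Log2 difference, knockout minus wild type, for the 10 tested probe sets (points with SE bars, 3 against 3 arrays), with the range when 1 array is left out (grey) and the value without knockout replicate 2 (diamonds). St3gal4 is at -0.67, and -0.45 without that replicate, and St8sia4 moves to -0.01. The dim Cmas probe set fell below the testing limit without that replicate and has no diamond, and its grey range covers only the fits that tested it.

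The remaining sialyltransferases that add sialic acid to sialic acid overlapped between genotypes. St8sia1, which makes GD3, was read by a probe set with 14.8, 8.40 and 17.5 in knockout brains, against 23.3, 11.6 and 35.6 in the wild type, too dim to be tested. St8sia3, which forms short sialic acid chains on proteins and lipids, read 439.9, 482.7 and 381.0, against 448.4, 417.7 and 412.7. Its log2 difference was 0.02 ± 0.11 (-0.15 without knockout replicates 1 and 2), and the knockout animals spanned a wider range than the wild-type animals. St8sia5, an enzyme of the most sialylated gangliosides, read 466.5, 471.4 and 340.1 in knockout replicates 1 to 3, against 473.1, 456.7 and 313.0 in wild-type replicates 1 to 3. The difference between genotypes was 0.05 ± 0.18 (-0.25 without knockout replicates 1 and 2). Between the 3-month-old animals alone, 1 per genotype, it was 0.11. In each genotype replicate 3 lay well below replicates 1 and 2.

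These low values were those of the 3-month-old animals, and age is a comparison that the choice of genes did not use. The older brains read 340.1 (knockout) and 313.0 (wild type) for St8sia5, against 467 ± 7.38 (SD, n = 4) in the 2-month-old brains, which lay between 456.7 and 473.1. The log2 difference, 3 months minus 2 months with genotype in the model, was -0.50 ± 0.08, or 1.41-fold lower, and in size exceeded 97.2% of all tested probe sets. It did not pass over all probe sets (limma adjusted p = 0.187, unadjusted p = 0.000372), although the ages did not overlap. Knockout animals alone gave -0.45 and wild-type animals alone -0.55. These are also the values without wild-type replicate 3 and without knockout replicate 3, and leaving out any other array gave values between them. With 2 animals at 3 months, both replicate 3 of their group, age cannot be told apart from anything else those replicates share.

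No member passed in the age comparison. Of the 10 tested probe sets 0 passed in limma, where 0.0268% of all did, and 2 had an unadjusted p under 0.05, where 12.4% did. The ages did not overlap for 5 of the 10, namely St8sia5, St8sia3, Gne and both Cmas probe sets, where 21.7% of all tested probe sets were apart, and the difference between these shares was not tested. At 3 months St8sia5, St8sia3 and the brighter Cmas probe set read lower. St8sia3 read 381.0 and 412.7 at 3 months, against 417.7 to 482.7 at 2 months (log2 -0.17 ± 0.09), with -0.26 among knockout animals and -0.07 among wild-type animals. Cmas, by its brighter probe set, read 1329.8 and 1367, against 1439 to 1612 (log2 -0.15 ± 0.07), with -0.20 among knockout and -0.09 among wild-type animals. The dim Cmas probe set ran opposite, with 93.1 and 93.4 against 45.7 to 88.5 (log2 0.43 ± 0.21; 0.24 among knockout and 0.61 among wild-type animals), so the probe sets of this gene disagreed. Gne read 366.6 and 341.8 at 3 months, against 289.3 to 333.2 at 2 months (log2 0.17 ± 0.10). Its age difference was 0.29 among knockout animals and 0.04 among wild-type animals, which is also the value without knockout replicate 3.

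St3gal4 had a positive age difference within each genotype, with 0.53 among knockout animals and 0.41 among wild-type animals. The log2 difference over both was 0.47 ± 0.15 (limma adjusted p = 0.305), and 0.34 without knockout replicate 2, whose low value entered the 2-month group. The ages overlapped, since wild-type replicate 1 at 2 months read 440.3 and knockout replicate 3 at 3 months read 359.5. St8sia4 had -0.23 ± 0.15 (-0.12 without knockout replicate 2), St8sia2 0.11 ± 0.11, B4galnt1 -0.06 ± 0.09 and St3gal5 -0.09 ± 0.09, with overlap in each case. The median over the 10 probe sets was -0.07, and over all tested probe sets 0.00. For the interaction of genotype and age 0 of the 10 passed in limma (lowest adjusted p = 0.938) and 0 had an unadjusted p under 0.05, where 0.0268% and 5.7% of all tested probe sets did.

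**Figure D4:**
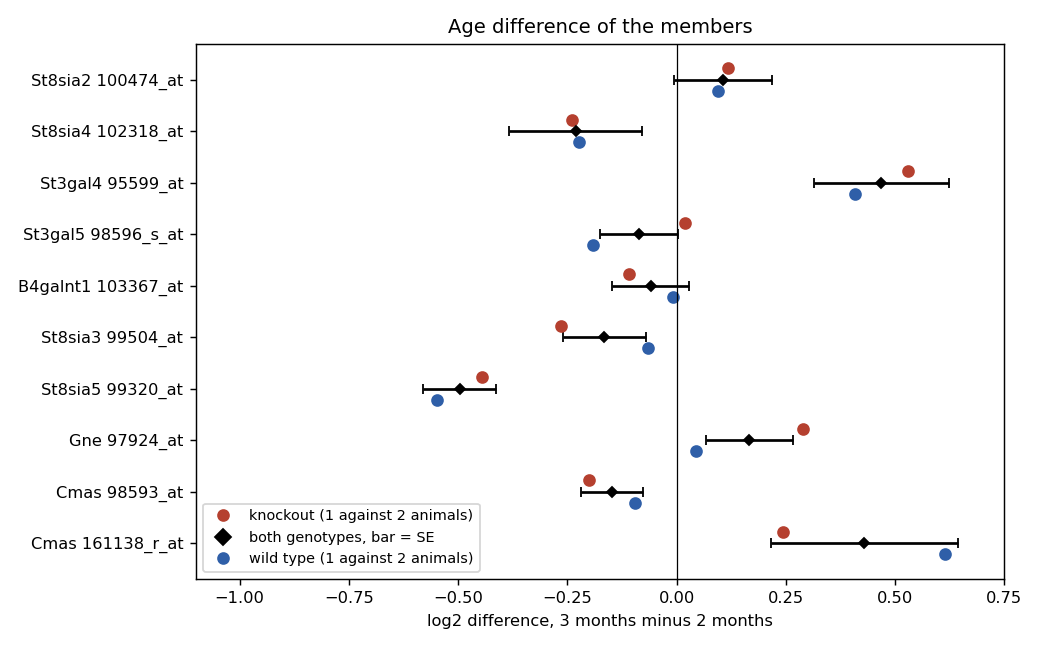
Log2 difference, 3 months minus 2 months, for the 10 tested probe sets, within knockout animals (red), within wild-type animals (blue) and over both with genotype in the model (black, bar = SE, 2 against 4 arrays). For knockout and wild type, St8sia5 is at -0.45 and -0.55, and St3gal4 at 0.53 and 0.41.

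The extremes of the set were spread over several animals. Knockout replicate 2 was the highest of the 6 animals for 3 of the 11 probe sets (St8sia4, St8sia3 and the brighter Cmas probe set) and the lowest for 3 (St3gal4, Gne and St8sia1), and wild-type replicate 3 had the same tally. Knockout replicate 1 was the highest for B4galnt1 and St3gal5 and the lowest for St8sia2. Within the wild-type group the spread was smallest for Gne (334.7 ± 6.53) and B4galnt1 (328.1 ± 7.18). In knockout animals the same genes had 320.2 ± 40.9 and 417.1 ± 21.0 (SD, n = 3).

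The wider pathway held 1 call, Ncam1 itself. Of 33 tested genes in 6 lists of related function, 0 passed as higher and 1 as lower in knockout brains, and the backgrounds were 0.0134% in each direction. Signed differences were positive for 14 and negative for 19 genes, with a median of -0.05. The genotypes were apart for 5 of the 33, where 12.9% of all tested probe sets were apart in either direction. All 5 were lower, namely the targeted gene Ncam1 itself, Mag, Ugt8a, St6galnac6 and St3gal6, where 6.8% of all were apart and lower. How far these counts stand from those shares was not tested.

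Other sialyltransferases had 2 positive and 8 negative differences among 10 tested genes, with a median of -0.14. St6galnac6, which adds sialic acid to gangliosides and other glycolipids, read 311.0, 330.2 and 307.2, against 377.0, 344.4 and 464.1 (log2 -0.30 ± 0.12, and -0.18 without wild-type replicate 3). St3gal6, a relative of St3gal4, read 118.6, 108.3 and 151.9, against 154.2, 152.7 and 159.9 (-0.28 ± 0.15). Its knockout replicate 3 lay just below the wild-type range, and the difference was -0.19 without knockout replicate 2 and -0.03 ± 0.16 without knockout replicates 1 and 2. St3gal3 read 107.2, 76.2 and 110.9, against 60.9, 77.2 and 71.5 (0.40 ± 0.19). The St3gal3 difference was 0.55 without knockout replicate 2 and 0.57 without knockout replicates 1 and 2. The list median by animal was -0.23, -0.23 and 0.04 in knockout replicates 1 to 3, against -0.10, 0.07 and 0.03 in wild-type replicates 1 to 3. Knockout replicate 3 therefore lay within the wild-type range.

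Glycosphingolipid synthesis beyond the set had 6 positive and 2 negative differences in 8 tested genes (median 0.03). Ugcg, which makes glucosylceramide, the base of all the gangliosides named above, had 0.13 ± 0.11 (0.00 without wild-type replicate 3). Degs1, of ceramide synthesis, had -0.11 ± 0.10. The Degs1 difference was -0.01 without knockout replicate 3, -0.18 without knockout replicate 2 and -0.31 without knockout replicates 1 and 2. Ugt8a, which makes galactosylceramide of myelin instead, read 224.9, 252.9 and 223.7, against 345.3, 280.1 and 338.1 (-0.43 ± 0.11). Ugt8a also stands in the myelin marker list, whose summed signals did not overlap between genotypes and were lower in knockout brains, while its median log2 deviations overlapped. The part of myelin content in the Ugt8a difference was not tested. Sialic acid supply and transport had 1 positive and 2 negative differences, with -0.18 ± 0.12 for Nans, the sialic acid synthase, -0.07 ± 0.13 for Slc35a1, the Golgi transporter of the activated sugar, and 0.01 ± 0.12 for Renbp. The Nans difference was -0.11 without knockout replicate 1 and 0.03 without knockout replicates 1 and 2. Slc35a1 was at -0.003 without knockout replicate 1 and -0.14 without knockout replicate 2, and Renbp at 0.18 without knockout replicates 1 and 2.

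Breakdown genes were near 0 in both directions, 4 positive and 5 negative among 9 tested (median -0.01). The lowest p values belonged to Arsa (-0.12 ± 0.10), Psap (-0.10 ± 0.08) and Ctsa (-0.06 ± 0.08), all of the lysosome. Without knockout replicates 1 and 2 the differences were -0.20 for Arsa, 0.01 for Psap and -0.13 for Ctsa. Dimmer Psap probe sets gave -0.04 ± 0.09 and 0.06 ± 0.10, so the probe sets of Psap disagreed in sign. Among carriers and readers of sialic acid, Cadm1, an adhesion molecule that can also carry polysialic acid, had 0.07 ± 0.12 by genotype (-0.15 without knockout replicates 1 and 2), measured by a less specific probe set. By age it read 1382 and 1331 at 3 months, against 1621 to 1744 at 2 months (-0.32 ± 0.06, limma adjusted p = 0.230). Mag, the myelin receptor for brain gangliosides, read 831.1, 816.1 and 630.6, against 941.3, 999.5 and 1151 (-0.44 ± 0.12, and -0.69 without knockout replicates 1 and 2), and like Ugt8a it belongs to the myelin list. A second, dim Mag probe set gave 0.25 ± 0.19, so the probe sets of Mag disagreed. None of these genes apart from Ncam1 passed in limma in either comparison.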

How the data were processed

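Per the labels, 10 ug of total RNA from each brain was made into biotinylated cRNA and read on an Affymetrix array with 1 colour. GCOS 1.4 is named in the submitters' processing notes, with no settings given in the sources used. The authors deposited linear signal intensities, 1 per probe set. These had a mean of 300.2 over the middle 96% on every array, so they look scaled to a common target. The number of arrays, 6, limits the precision.

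After 66 control entries were set aside, 12422 probe sets remained, of which 10833 had 1 gene symbol in the platform annotation, 396 several and 1193 none. No probe set with several symbols held a member. Symbols of all 10 members were found in RefSeq's table. Values were transformed as log2(signal + 16), which understates folds of dim genes, and probe sets at or above the 40th percentile were tested (6.46, a signal of 72.2). limma 3.58.1 in R 4.3.3 (eBayes with an intensity trend, two-sided) fitted genotype over 6 arrays, age with genotype as a covariate, and their interaction, with Benjamini-Hochberg adjustment over 7453 probe sets and a threshold of 0.05. The labels describe individual animals, so the p-values reflect the spread between them. Gene lists used the brightest tested probe set per gene. Of a further list of 3 HNK-1 glycan synthesis genes, 0 matched a probe set with 1 symbol, so the list was not analysed here.

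The members and lists were chosen with earlier results of these data known. The rule for naming genes took every member, Ncam1, the 3 genes with the lowest genotype p of each pathway list, and of each marker list the 2 brightest genes, which are given within the list sums, and any that check an array standing apart. Microglial and vascular lists overlapped between genotypes in summed signal (2901 to 3378 against 3120 to 3240, and 932.9 to 1278 against 1042 to 1260). The fits were tested on simulated data. In each simulation 200 of 7453 probe sets were changed, by log2 sizes of 0.5, 1 or 2. Of simulated log2 changes of 0.5, limma recovered 51.6% for genotype and 42.9% for age, and of changes of 1, 95% and 93.1%. In the measured data only 2 probe sets passed for genotype and 2 for age. With fewer real changes the adjusted threshold is stricter, so these recovered shares may not hold for the measured arrays. False calls stood at 5.85% for genotype and 6.88% for age. Changes of 0.5 or less could therefore be missed, and so could larger ones. In the measured genotype comparison St3gal4, at -0.67, and the less specific Ncam1 probe set, at -0.68, did not pass. Alternatives were other normalizations, pseudocounts, filters and variance models, array weights, a replicate block, age as a covariate, age without genotype in the model, each array left out and, chosen after seeing the data, knockout replicates 1 and 2 both left out. Promoter windows were matched by symbol, and those on chromosome 18, which holds St8sia3 and St8sia5, were left out. Windows of 7 members were used, and none was used for B4galnt1. Strand was checked on 1838 overlapping windows of opposite strand, all of which matched as reverse complements. Figures were drawn with matplotlib 3.10.9.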

Additional observations from a re-analysis of the deposited data

How the results depend on the processing

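For genotype, age and their interaction 17, 15 and 8 alternatives were run. None of the 10 member probe sets passed in limma in any alternative that tested it. The dim Cmas probe set was tested in only 12, 11 and 7 of them, and fell below the testing limit in the rest. None of the 1018 single values recomputed for the named genes changed its call. Over the alternatives the genotype difference (log2) ranged from -0.85 to -0.32 for St3gal4, 0.26 to 0.37 for B4galnt1 and 0.24 to 0.34 for St3gal5, with adjusted p from 0.215 to 0.952, 0.224 to 0.940 and 0.315 to 0.940. St8sia5 ranged from -0.56 to -0.44 by age, with adjusted p from 0.135 to 0.483. Genotype differences near 0 changed sign when arrays were left out, St8sia5 in 4 alternatives, St8sia3 in 3, St8sia4 and the brighter Cmas probe set in 2 each and Gne in 1. By age, St3gal5 changed sign in 1.

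Counts over all probe sets moved by more than 1.5 times. For genotype, 2 passed, and 1 with quantile normalization, median centring, no filter or no intensity trend, 4 with array weights, 1 to 3 without 1 array, and 3 without knockout replicates 1 and 2 together, an alternative chosen after seeing the data. For age, 2 passed, and 1 without the filter or without genotype in the model, 0 without the trend and 0 to 5 without 1 array. For the interaction, 2 passed, and 0 without the filter or without the trend, 1 with the 60th percentile filter and 4 with array weights. The cause of these moves was not tested.

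Correlations of deviations between same-numbered animals of the 2 genotypes were 0.01, 0.15 and 0.20, against -0.22 to 0.08 between animals of different number. Replicate 3 of each genotype also shares its age, so these values cannot tell whether the replicate numbers pair the animals. With the replicate number as a block, 2 probe sets passed for genotype, 0 of them members. Those with an unadjusted limma p under 0.05 numbered 634, against 517 without the block. The standard error of St3gal4 was 0.10 with the block and 0.20 without it (limma adjusted p = 0.215 and 0.585).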
